A study of Sus scrofa with 30 samples.

Results

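The brain cortex of pigs that received methylene blue was compared with that of pigs that received saline alone, 30 min after return of spontaneous circulation (ROSC) and while the infusion still ran. The comparison was made over the 3 arrays labelled as resuscitated with methylene blue at this time (MB30) and the 3 labelled as resuscitated with saline (SAL30), out of 30 arrays of the study. The animals were prepubertal farm pigs (Swedish triple breed) of both sexes. They were 12 to 14 weeks old, weighed 25.8 kg on average and were under pentobarbital anesthesia. All 6 underwent 12 min of cardiac arrest from induced ventricular fibrillation and 8 min of mechanical chest compressions before the countershock. SAL30 animals received normal saline at 55 mL/kg/h, and MB30 animals received the same volume with methylene blue at 7.5 mg/kg/h. The infusion began 1 min into the compressions and ended 50 min after ROSC. Each group of 3 is given as biological replicates, and the assignment to saline or methylene blue was random per the labels. Other arrays hold cortex after 0, 5, 20 or 30 min of arrest without resuscitation (CA0, CA5, CA20, CA30) and cortex 60 or 180 min after ROSC in both arms (SAL60, SAL180, MB60, MB180).

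Methylene blue is a redox dye that accepts and donates electrons, inhibits nitric oxide synthase and soluble guanylate cyclase, and inhibits monoamine oxidase. It is used as a vasopressor in vasodilatory shock and as an antidote in methemoglobinemia. In reperfused brain, nitric oxide made by its synthases activates guanylate cyclase, and the cyclic GMP formed relaxes vascular smooth muscle, while immediate early genes, heat shock genes and cytokines are transcribed within the first hours.

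Each array reports an intensity in arbitrary units for 23999 probe sets that are not controls, and a gene can have several probe sets. Values were scaled per array before deposit, to a trimmed mean of 300.05 to 300.06 on every array, so each comparison is relative to that mean. The 6 tissues carried the markers of cortex. The summed intensity of 15 neuron genes ran from 60188 to 78886 in SAL30 and from 75923 to 91508 in MB30, and that of 11 astrocyte genes from 38138 to 46795 and from 37355 to 51403. White blood cell genes summed to 476 to 1068 in SAL30 and 446 to 515 in MB30, and CD3E, CD3D, S100A9 and S100A12 had mean intensities under 29.5 in both groups. Both sexes were present in each arm: the Y-linked EIF1AY read 567, 511 and 2.54 in SAL30 replicates 1 to 3 and 9.03, 4.70 and 581 in MB30 replicates 1 to 3. In what follows the 3 values of a group are always given in this order.

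SAL30 replicate 1 stood apart. The lowest correlation between arrays of 1 group was 0.933 in SAL30, against 0.954 or more in each of the other 9 groups. Its microglia genes summed to 6745, against 3431 and 2498 on the other SAL30 arrays and 2587 to 3045 in MB30. CCK, a neuropeptide of cortical interneurons and pyramidal cells, read 354, 5713 and 4847 in SAL30 and 6753, 9792 and 8110 in MB30, a difference of 1.90 (adjusted p = 0.0538) that was 0.63 (adjusted p = 0.29) without that array. Calls that end without it are named as such.

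The arms also differed in their technical controls. Poly-A spike-in controls are bacterial transcripts added to the RNA before labelling, and their mean log2 level over 39 probe sets was 7.13, 6.87 and 6.95 in SAL30 and 6.05, 6.10 and 6.44 in MB30. All 3 MB30 arrays lay below all 3 SAL30 arrays, with a difference of -0.79 and a two-sided exact permutation p of 0.1, the smallest that 3 arrays against 3 allow. The difference was -0.60 at 60 min (exact p = 0.1, no overlap) and -0.36 at 180 min (exact p = 0.2, with overlap). Over 27 probe sets of the hybridization controls, which are added after labelling, it was -0.16 at 30 min (exact p = 0.8).

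The ratio of 3′ to 5′ signal rises as RNA is shortened or copied incompletely. Averaged over 4 pig control transcripts, its log2 was 1.0, 1.21 and 0.89 in SAL30 and 0.83, 0.79 and 0.90 in MB30, a difference of -0.19 with overlapping groups (exact permutation p = 0.2). Among 6 pairs of 3′ and 5′ probe sets, it was 1.57 ± 0.08 in MB30 and 1.90 ± 0.07 in SAL30 for an actin pair. For the elongation factor EF1A it was 0.22 ± 0.12 and 0.53 ± 0.08 (SD, n = 3). Each of these was without overlap and had an exact permutation p of 0.1. The remaining pairs overlapped, with an exact permutation p of 0.2 to 0.5. Their differences were -0.44 for the other actin pair, -0.48 and -0.21 for GAPDH, and 0.27 for the control named angioten. Whether the arrays of an arm were prepared together is not given in the sources used here, so methylene blue and preparation cannot be told apart.

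**Figure D1:**
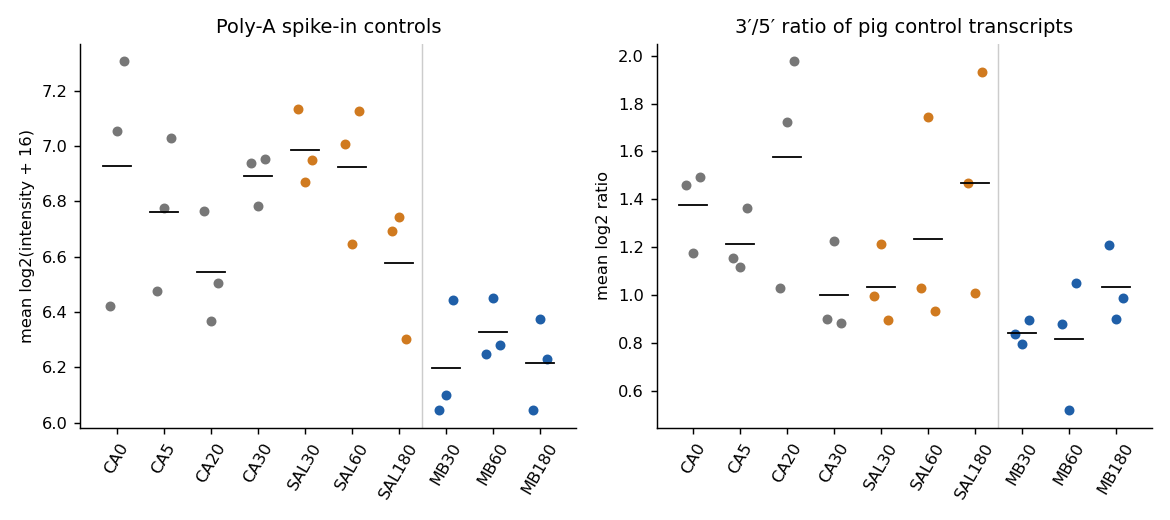
Controls on each of the 30 arrays. Left, mean log2(intensity + 16) over 39 poly-A spike-in probe sets; right, mean log2 ratio of 3′ to 5′ signal over 4 pig transcripts. Points are arrays, bars are means of 3 arrays, and colours mark arrest without resuscitation (grey), saline (orange) and methylene blue (blue). The MB30 arrays sit at 6.05 to 6.44 in the left panel, below the SAL30 arrays at 6.87 to 7.13.

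Of 16799 probe sets tested, 403 were higher and 284 lower in MB30 than in SAL30 at an adjusted p under 0.05 (limma, Benjamini-Hochberg), which is 2.4% and 1.69% of those tested and 4.09% together. These are called below. Before adjustment, 3572 probe sets (21.3%) had a p under 0.05, where 840 would be expected if no probe set differed. The MB30 arrays did not overlap the SAL30 arrays for 396 of the 403 and 275 of the 284, against 12.8% and 9.58% of all tested probe sets that lay apart in these directions. The calls were selected on these same arrays, so this separation adds no support to them. The median log2 difference was 0.93 among those called higher and -0.66 among those called lower, and 164 exceeded 1 upwards and 40 downwards. A gene symbol was known for 182 of the higher and 130 of the lower, while 362 called probe sets had none and 13 had several.

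The direction went with the signal level. In the dimmest of 5 equal bins of intensity, 29.6 to 69.6 units, 134 probe sets were called higher and 20 lower, and in the brightest bin, 689 to 17090 units, 42 were called higher and 95 lower. The median difference of all probe sets was 0.17 in the dimmest bin and -0.03 in the brightest. The share of calls that were higher was 58.7%, against 48.1% after quantile normalization, 33.8% after centring on the median and 53% after cyclic loess. It was 67.5% with no filter on mean level, 47.2% with a filter at the 50th percentile and 73.9% with the spike-in level as a covariate. The filter used the mean of all 30 arrays, methylene blue arrays included. The split between higher and lower calls thus varied with these settings, and its cause was not tested.

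The count also followed single arrays. Leaving out SAL30 replicate 1 left 246 calls, 178 higher and 68 lower, of which 218 were among the 687. Without SAL30 replicate 2 there were 424 and without SAL30 replicate 3 there were 1117, and without MB30 replicate 1, 2 or 3 there were 336, 286 and 292. With the spike-in level as a covariate there were 445 higher and 157 lower, of which 247 were among the 687, and with the 3′/5′ ratio 413 higher and 263 lower. A fit to the 6 arrays alone, in which the spread is not shared with the other 24, called 25 higher and 2 lower. Of 54 called probe sets named in the text and followed under the alternatives, 26 lost their call with the spike-in covariate: those of HGSNAT, CLSTN3, ARPC4, P3H4, MBNL3, C17H20orf85, PIK3R5, RCN1, P4HA2, IRF8, PRDX1, EGR4, IL1B, NDUFA13, PSMA5, TIMP2, TYROBP, IGF2 (its brightest probe set), PSMB4, CTNNB1, TIMP3, BCL2L1, RPL27, MOBP, PSME2 and NDUFV2. The 3′/5′ covariate ended 11, array weights 12 and the fit to the 6 arrays alone 47. Called with every 1 of the 6 arrays left out in turn were 79 of the 403 higher (19.6%) and 35 of the 284 lower (12.3%).

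**Figure D2:**
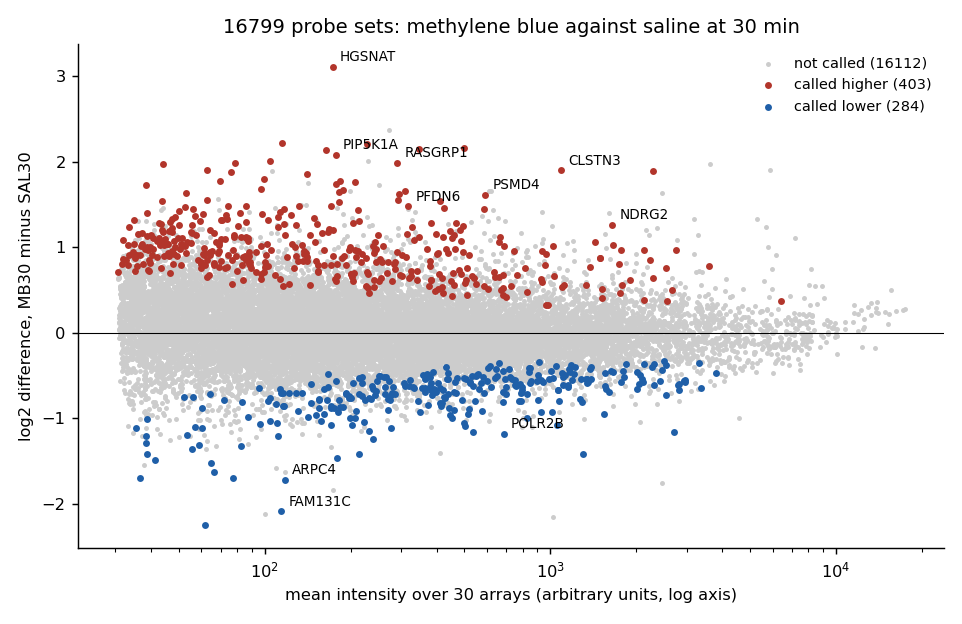
Log2 difference between MB30 and SAL30 for each of 16799 probe sets against its mean intensity over 30 arrays (arbitrary units, log axis). Red points are the 403 called higher, blue the 284 called lower and grey the rest; higher calls are spread over low intensities and lower calls over middle and high ones.

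PSMD4 and PIP5K1A were higher in every methylene blue array than in every other array of the study. Both genes were chosen with results known, so their separation and adjusted p describe them and add no independent support. PSMD4 is a subunit of the proteasome's regulatory particle that binds ubiquitin chains. It read 441, 302 and 412 in SAL30 and 1314, 1091 and 1187 in MB30, 3.11 times higher by group means. The groups were far apart, and the log2 difference was 1.61 ± 0.20 (SE; adjusted p = 9.33e-05). Over the study, the 9 methylene blue arrays lay at 1056 to 1363 and the 21 arrays without methylene blue at 209.6 to 441.

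PIP5K1A makes phosphatidylinositol 4,5-bisphosphate, the lipid that phospholipase C cleaves and that anchors actin regulators to the membrane. One of its probe sets read 66, 80.6 and 79.8 in SAL30 and 368, 338 and 405 in MB30, 4.91 times higher by group means. No SAL30 array came near the MB30 range, and the log2 difference was 2.08 ± 0.24 (SE; adjusted p = 2.35e-05). The 9 methylene blue arrays lay at 302 to 524 and the 21 others at 51.4 to 141. The other tested probe set of PIP5K1A, with low signal, read 24.8, 40.9 and 24.4 in SAL30 and 39.1, 31.3 and 52.3 in MB30. Those groups overlapped, with a difference of 0.31 (adjusted p = 0.46). Both calls held under all 19 alternatives, including each array left out and the spike-in level or the 3′/5′ ratio as a covariate. The adjusted p (limma) was at most 0.021 for PSMD4 and 0.016 for PIP5K1A. As both genes were chosen with results known, this adds no independent support. The spike-in level was 6.05 to 6.45 on the 9 methylene blue arrays and 6.30 to 7.31 on the 21 others. With so little overlap, that covariate cannot separate methylene blue from preparation.

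In the pig reference annotation (Sscrofa11.1, used for gene order alone) PSMD4 and PIP5K1A are adjacent, with 0 genes between them. The measured genes on either side were 16, with 18 tested probe sets, and lay up to 41 gene places away. Of these probe sets 0 were called higher and 1 lower, against 2.4% and 1.69% of all tested. With so few, the counts do not set the neighbours apart from the rest. Their differences ran from -0.88 to 0.40. The lower one was PSMB4, a subunit of the proteasome core, at 2717, 2090 and 2214 in SAL30 and 1838, 1859 and 1709 in MB30. The groups did not overlap, with a difference of -0.37 ± 0.11 (SE; adjusted p = 0.0479), but the call was kept under 5 of 19 alternatives and ended under 4 left-out arrays (SAL30 replicate 1 or any 1 of MB30) and 10 other settings. ZNF687, the measured gene nearest to PSMD4, differed by -0.66 (adjusted p = 0.18), and VPS72, the nearest to PIP5K1A, by -0.49 (adjusted p = 0.37) and -0.05 (adjusted p = 0.91) on its 2 probe sets. These genes were named for their place, after their values were seen.

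**Figure D3:**
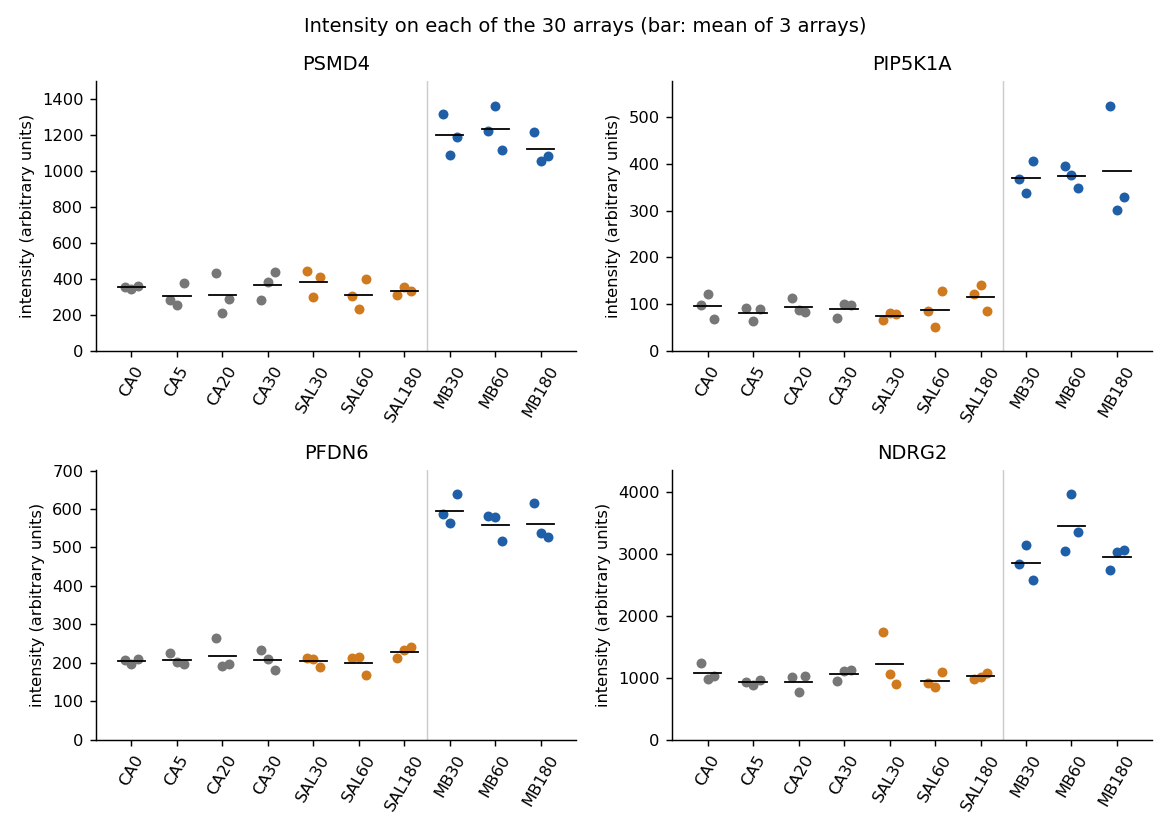
Intensity (arbitrary units, axis from 0) of PSMD4, PIP5K1A, PFDN6 and NDRG2 on each of the 30 arrays by group. Points are arrays and bars are means of 3; grey marks arrest without resuscitation, orange saline and blue methylene blue. In all 4 panels the 9 methylene blue arrays lie above the 21 others.

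PFDN6 had the smallest p of all probe sets and is named for that reason, after its values were seen. It is a subunit of prefoldin, which hands newly made actin and tubulin to the chaperonin. Its intensity was 213, 209 and 188 in SAL30 and 586, 563 and 638 in MB30. The 3 arrays of each group agreed closely, and the difference was 1.48 ± 0.13 (SE; adjusted p = 2.69e-07). NDRG2, a cytoplasmic protein made mainly by astrocytes in the brain, read 1735, 1054 and 893 in SAL30 and 2840, 3152 and 2587 in MB30. SAL30 replicate 1 was the highest of its group and still below MB30, and the difference was 1.26 ± 0.17 (SE; adjusted p = 0.000115). NDRG2 was the 1 called gene of 10 tested astrocyte markers, whose median difference was 0.01, and GFAP read 11485, 7194 and 6044 in SAL30 and 5044, 8744 and 6347 in MB30, a difference of -0.28 (adjusted p = 0.50).

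Other genes rose from low levels. SLC37A4, which carries glucose 6-phosphate into the endoplasmic reticulum, read 57.4, 33.8 and 56.9 in SAL30 and 216, 224 and 182 in MB30, a difference of 1.79 ± 0.24 (SE; adjusted p = 0.000115). Another tested probe set of SLC37A4 differed by 0.69 (adjusted p = 0.099). COG8, part of a Golgi tethering complex, read 21.4, 22.3 and 46.2 and 119, 169 and 159, a difference of 1.87 ± 0.32 (SE; adjusted p = 0.00219). Another tested probe set of COG8 differed by 0.31 (adjusted p = 0.58). ATP5L, a membrane subunit of ATP synthase, read 45.5, 103 and 175 and 300.1, 273 and 346, a difference of 1.52 ± 0.29 (SE; adjusted p = 0.00598). In these 3 genes every MB30 array was above every SAL30 array, which the rule for naming the largest changes required. Their calls held with each of the 6 arrays left out.

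The largest difference of any gene with a symbol was that of HGSNAT, a lysosomal enzyme of heparan sulfate breakdown, which read 109.9, 19.6 and 14.2 in SAL30 and 218, 759 and 461 in MB30. The MB30 values were themselves far from each other but above all SAL30 values, and the difference was 3.11 ± 0.73 (SE; adjusted p = 0.0172). Its other tested probe set differed the opposite way, by -0.90 (adjusted p = 0.06). RASGRP1, which activates Ras after diacylglycerol binds, read 19.2, 202 and 283 in SAL30 and 544, 589 and 408 in MB30, a difference of 1.99 ± 0.48 (SE; adjusted p = 0.0206). SAL30 replicate 1 held the low value, and without it the difference was 1.04 (adjusted p = 0.11). CLSTN3, a postsynaptic adhesion protein, read 354, 473 and 937 and 2596, 1689 and 1992, a difference of 1.90 ± 0.41 (SE; adjusted p = 0.0116), and GHRHR, the receptor of growth hormone releasing hormone, read 9.52, 35 and 50.2 and 112, 141 and 155, a difference of 1.77 ± 0.36 (SE; adjusted p = 0.00887). Neither gene's groups overlapped, which the same naming rule required. Calls ended for HGSNAT without MB30 replicate 2, MB30 replicate 3 or SAL30 replicate 2, for RASGRP1 without MB30 replicate 1 or 2 or SAL30 replicate 1, for CLSTN3 without MB30 replicate 1 or SAL30 replicate 1, and for GHRHR without SAL30 replicate 1.

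Among genes that were lower with methylene blue, FAM131C had the largest difference, from 313, 145 and 92.1 in SAL30 to 28.4, 24.4 and 25.6 in MB30. All 3 MB30 values were under the filter level of 29.5, and the difference of -2.09 ± 0.37 (SE; adjusted p = 0.00328) held with each array left out. POLR2B, a core subunit of RNA polymerase II, read 1063, 694 and 801 in SAL30 and 459, 292 and 351 in MB30 on 1 probe set, a difference of -1.18 ± 0.22 (SE; adjusted p = 0.00461). Over the study that probe set lay at 250.4 to 486 on the 9 methylene blue arrays and 567 to 1063 on the 21 others. Its other 3 tested probe sets went the opposite way without passing: the brightest read 2139, 2855 and 2204 in SAL30 and 2809, 3499 and 2897 in MB30, and the 3 differences were 0.36 (adjusted p = 0.23), 0.38 (adjusted p = 0.16) and 0.20 (adjusted p = 0.77).

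Some bright genes fell by less, and are named after their values were seen because they were called at all 3 times. SET, a histone chaperone that also inhibits protein phosphatase PP2A, read 3691, 3555 and 3651 in SAL30 and 2138, 2330 and 2505 in MB30, a difference of -0.64 ± 0.12 (SE; adjusted p = 0.0041). NFIA, a transcription factor of glial development, read 1348, 1415 and 1354 and 887, 851 and 903, a difference of -0.63 ± 0.13 (SE; adjusted p = 0.00981). HOMER2, a scaffold of the postsynaptic density, read 1292, 1634 and 1911 and 1021, 1079 and 994, a difference of -0.62 ± 0.14 (SE; adjusted p = 0.0125). Each of these calls held with each of the 6 arrays left out, and in each gene all MB30 arrays were below all SAL30 arrays. TMED4, which sorts cargo between the endoplasmic reticulum and the Golgi, behaved alike, at 906, 816 and 794 in SAL30 and 508, 611 and 513 in MB30, a difference of -0.61 ± 0.10 (SE; adjusted p = 0.00178). The other tested probe sets of these genes were not called. That of SET differed the opposite way, by 0.16 (adjusted p = 0.42). Those of NFIA differed by -0.51 and -0.34, of HOMER2 by -0.12 and -0.23, and of TMED4 by -0.46 and 0.06.

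The other 8 genes with the largest falls rested more on single arrays. ARPC4, a subunit of the Arp2/3 actin nucleator, read 172, 166 and 196 in SAL30 and 106, 12.3 and 43 in MB30, a difference of -1.72 ± 0.48 (SE; adjusted p = 0.0416), with the 3 MB30 arrays far from each other. P3H4 and P4HA2, which act on collagen chains in the endoplasmic reticulum, differed by -1.49 ± 0.34 (SE; adjusted p = 0.0155) and -1.21 ± 0.30 (SE; adjusted p = 0.0252), from 85.8, 70.5 and 41.5 to 12, 10.3 and 15.3 and from 57.4, 54.6 and 47.7 to 10.1, 6.05 and 30.3. RCN1, a calcium-binding protein of the same compartment, went from 510.2, 213 and 323 to 128, 144 and 118, a difference of -1.24 ± 0.30 (SE; adjusted p = 0.0223). MBNL3, a splicing regulator, fell from 952, 225 and 206 to 99, 107 and 176 and differed by -1.42 ± 0.38 (SE; adjusted p = 0.0331), of which SAL30 replicate 1 carried much: without it the difference was -0.73 (adjusted p = 0.21). C17H20orf85, an uncharacterized gene by its name, read 175, 52.3 and 74.2 and 16.1, 35.3 and 26.8 and differed by -1.35 ± 0.36 (SE; adjusted p = 0.0333). On another tested probe set, ARPC4 differed by -0.79 (adjusted p = 0.11) and P4HA2 by -0.19 (adjusted p = 0.77). Leaving out SAL30 replicate 1 ended the calls of all 6 of these genes. So did leaving out MB30 replicate 1 for MBNL3, C17H20orf85, RCN1 and P4HA2, MB30 replicate 2 for ARPC4, P3H4, MBNL3, C17H20orf85 and P4HA2, MB30 replicate 3 for ARPC4, C17H20orf85 and RCN1, SAL30 replicate 2 for ARPC4 and P4HA2, and SAL30 replicate 3 for ARPC4.

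The last pair, IRF8 and PIK3R5, are genes of microglia and other myeloid cells. IRF8, a transcription factor these cells depend on, read 738, 387 and 243 in SAL30 and 158, 153 and 229.8 in MB30, a difference of -1.15 ± 0.32 (SE; adjusted p = 0.0403), and PIK3R5, a regulatory subunit of phosphoinositide 3-kinase gamma, read 98.9, 62 and 27.3 and 9.49, 20.1 and 12.7, a difference of -1.29 ± 0.28 (SE; adjusted p = 0.0112). Of 6 tested microglia markers, 0 were called higher and 1 lower, all 6 differences were negative, and the median was -0.53. Taking the brightest probe set of each of 5773 genes, 2.01% were called lower and 52.6% were negative. The one called was TYROBP, a signalling adaptor, at 499.6, 219 and 185 in SAL30 and 149.6, 135 and 142 in MB30, a difference of -0.87 ± 0.25 (SE; adjusted p = 0.0486). The summed intensity of the 7 markers on the array was 2498 to 6745 in SAL30 and 2587 to 3045 in MB30, with ITGAM under the filter level in MB30. Without SAL30 replicate 1 the median was -0.14 and the calls of all 3 genes ended, at -0.74 (adjusted p = 0.23) for IRF8, -0.97 (adjusted p = 0.083) for PIK3R5 and -0.46 (adjusted p = 0.31) for TYROBP. The call of TYROBP ended too without any 1 of the MB30 arrays, and that of IRF8 without any 1 of them or SAL30 replicate 2. Fewer cells of a type and less RNA per cell cannot be told apart in such tissue, and the part of cell content in these calls was not tested.

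The other probe sets of a called gene were mostly not called. Of 305 genes with a call, 143 had another tested probe set, 226 in all. Of those 226, 7 were called in the same direction (3.1%, against 4.15% called in either direction among all probe sets of genes with several), and 0 in the opposite direction. The same sign was seen for 140 (61.9%). In the direction of the call, the median difference of the other probe sets was 0.11, where the median size of the calls was 0.81. Some probe sets of a gene share sequence and others target different transcript ends, which the files do not separate.

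**Figure D4:**
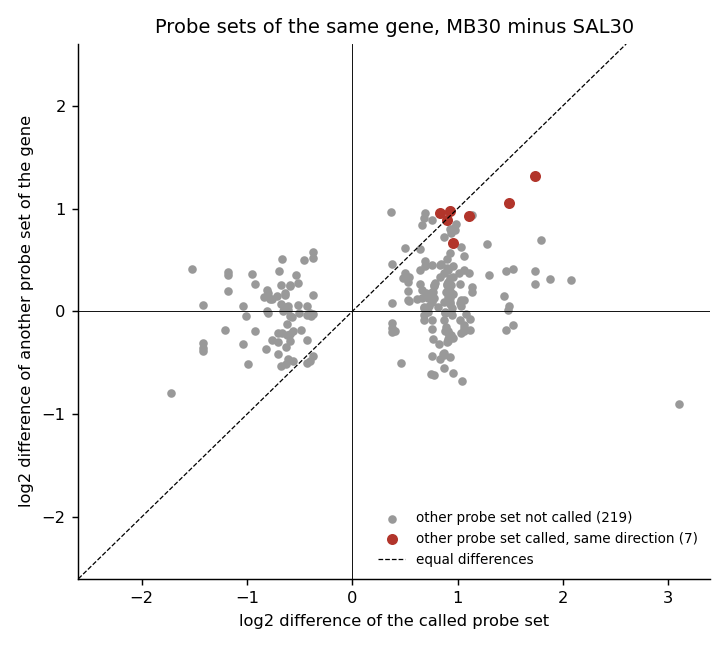
Log2 difference (MB30 minus SAL30) of called probe sets against that of another tested probe set of the same gene, 226 pairs. Red points are the 7 others called in the same direction, grey points the 219 not called, and the dashed line marks equal differences. Most other probe sets lie near 0, with a median of 0.11 in the direction of the call.

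Genes of the pathways that methylene blue is known to act on were examined next, with 1 probe set per gene, the brightest. On this basis 5773 genes were tested, 116 higher (2.01%) and 116 lower (2.01%), 4.02% together, with a median difference of -0.02. Of 15 tested genes of nitric oxide and cyclic GMP signalling, 0 were called, and 4 had an unadjusted p under 0.05, all higher (9.46% of all genes did so in that direction). Their median difference was 0.17. Over all the lists, 8 members were called higher and 2 lower on a probe set other than the brightest, and these are given with their lists, as chosen after their values were seen. NOS2, the inducible nitric oxide synthase, read 50.2, 22.8 and 17.1 in SAL30 and 45.1, 62.1 and 73.9 in MB30, with overlap and a difference of 0.78 ± 0.30 (SE; adjusted p = 0.13). NOS3, the endothelial synthase, read 150.2, 108 and 136 and 142, 217 and 153, a difference of 0.33 ± 0.22 (SE; adjusted p = 0.39). GUCY1B3, the beta subunit of soluble guanylate cyclase, read 557, 1141 and 923 in SAL30 and 1540, 1134 and 1117 in MB30, where SAL30 replicate 1 was the low value, and differed by 0.57 ± 0.23 (SE; adjusted p = 0.14).

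Neither monoamine oxidase passed. MAOA read 1398, 879.5 and 669 in SAL30 and 838, 1166 and 1091 in MB30, a difference of 0.12 (adjusted p = 0.74), and MAOB read 1538, 725 and 615 and 514, 727 and 605, a difference of -0.52 (adjusted p = 0.26). The groups overlapped for both. The 95% interval of the difference was -0.25 to 0.50 for MAOA and -1.07 to 0.02 for MAOB, and the data do not separate values within these bounds. Of 29 genes of oxidative stress defence, 0 were called higher and 2 lower. They were PRDX5, a mitochondrial peroxiredoxin, at 1960, 1883 and 1792 in SAL30 and 1176, 1367 and 1046 in MB30 (difference -0.65 ± 0.17, SE; adjusted p = 0.031), and PRDX1, its cytosolic relative, at 1713, 1152 and 994 and 785, 796 and 757 (difference -0.67 ± 0.20, SE; adjusted p = 0.0493). Both were lower on every MB30 array. PRDX1 was called under 3 of 19 alternatives and lost without any 1 array except SAL30 replicate 3, and PRDX5 was lost without MB30 replicate 1 or 3 or SAL30 replicate 1 or 2. HMOX1, heme oxygenase, which answers oxidative stress, read 168, 127 and 112 and 195, 229 and 184, a difference of 0.54 (adjusted p = 0.31). Of 10 genes of heme synthesis and iron handling, 0 were called, with a median of -0.08.

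**Figure D5:**
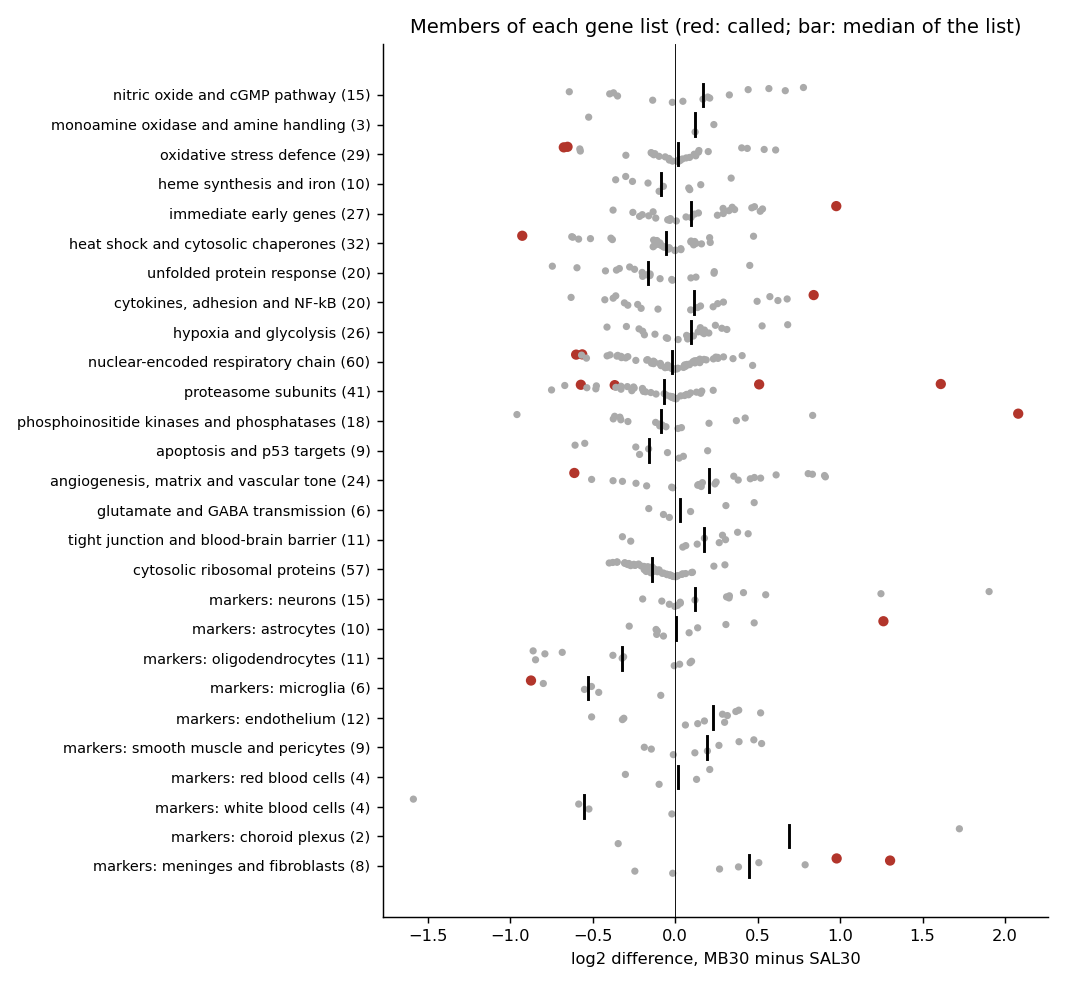
Log2 difference (MB30 minus SAL30) of each tested member of 27 gene lists, 1 probe set per gene (the brightest), with the number of members in parentheses. Red points are the called members, grey points the rest and black bars the list medians; no list has more than 4 called members.

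Genes of the early response to reperfusion mostly did not pass. Of 27 immediate early genes, 1 was called higher and 0 lower, with a median of 0.10. This was EGR4, a zinc finger transcription factor induced by neuronal activity, at 216, 273 and 238 in SAL30 and 313, 561 and 667 in MB30. All MB30 values were above SAL30, and the difference was 0.98 ± 0.28 (SE; adjusted p = 0.0479), lost without any 1 array except MB30 replicate 1. FOS read 4648, 3675 and 4003 in SAL30 and 4754, 5136 and 4785 in MB30, a difference of 0.26 (adjusted p = 0.76), and DUSP1, a MAP kinase phosphatase, read 4087, 2957 and 3139 and 3494, 4161 and 2652, a difference of 0.01 (adjusted p = 0.99). Of 32 heat shock genes and cytosolic chaperones, 0 were called higher and 1 lower. It was DNAJB2, a neuronal co-chaperone, at 1426, 1042 and 809 in SAL30 and 438, 619.8 and 620.0 in MB30, with no overlap and a difference of -0.93 ± 0.23 (SE; adjusted p = 0.0229), lost without MB30 replicate 1 or SAL30 replicate 1.

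HSPA6, a strictly inducible HSP70, read 2673, 2133 and 3602 in SAL30 and 1940, 1846 and 1567 in MB30. Each MB30 array was below each SAL30 array, but the difference of -0.62 ± 0.20 (SE; adjusted p = 0.0666) missed the threshold, which it passed under 4 of 19 alternatives. The small chaperone HSPB8 differed by 0.48 (adjusted p = 0.065). Of 20 genes of the unfolded protein response, 0 were called, with a median of -0.16, and DDIT3 differed by 0.45 (adjusted p = 0.0735) and CEBPB by -0.74 (adjusted p = 0.11). Of 20 cytokine, adhesion and NF-kB genes, 1 was called higher and 0 lower. It was IL1B, an inflammatory cytokine, at 166, 91.1 and 77.4 in SAL30 and 173, 209.7 and 229 in MB30, a difference of 0.84 ± 0.23 (SE; adjusted p = 0.0393), and the call was lost without any 1 array except SAL30 replicate 1. CXCL2, a chemokine that draws neutrophils, read 336, 462 and 424 and 473, 275 and 404, a difference of -0.10 (adjusted p = 0.92), and STAT3 differed by -0.36 (adjusted p = 0.11).

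In energy metabolism, 0 of 60 nuclear genes of the respiratory chain were called higher and 2 lower on their brightest probe sets. Both belong to complex I: NDUFA13 read 3688, 3262 and 3138 in SAL30 and 2259, 2552 and 2018 in MB30, and NDUFB9 3063, 3420 and 3522 and 2189, 2562 and 1878. All MB30 values were below SAL30 in both, with differences of -0.56 ± 0.13 (SE; adjusted p = 0.0155) and -0.60 ± 0.15 (SE; adjusted p = 0.0245). NDUFA13 was lost without MB30 replicate 3 or SAL30 replicate 1, and NDUFB9 without MB30 replicate 1 or 3 or SAL30 replicate 2. The median of the 60 was -0.02, with 28 positive and 32 negative. On other probe sets 2 were called higher. They were ATP5L, given above, whose brightest probe set differed by -0.14 (adjusted p = 0.60), and NDUFV2, of complex I, at 25.6, 10.8 and 32.6 in SAL30 and 35.8, 59.2 and 75 in MB30. NDUFV2 differed by 0.90 (adjusted p = 0.042) there and by 0.26 (adjusted p = 0.22) on its brightest probe set, and the call was lost without MB30 replicate 2 or 3 or SAL30 replicate 1 or 2. Of 26 hypoxia and glycolysis genes, 0 were called, with a median of 0.10, where LDHA differed by 0.68 (adjusted p = 0.13) and PGK1 by 0.24 (adjusted p = 0.18). On other probe sets, P4HA2 was called lower, as given above, and the glycolytic enzyme GAPDH higher, at 44.1, 33.6 and 34.9 in SAL30 and 72.3, 90.9 and 89.9 in MB30. This GAPDH call, 0.91 (adjusted p = 0.0106), held with each array left out, and the brightest probe set of the gene differed by 0.20 (adjusted p = 0.65).

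Of 41 proteasome subunits, 2 were called higher and 2 lower, and the median was -0.07. At an unadjusted p under 0.05, 2 were higher and 10 (24.4%) lower, against 11.4% of all genes in the latter direction, and 28 of 41 (68.3%) were negative. PSMD4 was the only one to exceed a difference of 1. PSMA5, of the alpha ring, read 537, 554 and 514 in SAL30 and 804, 759.6 and 743 in MB30, a difference of 0.51 ± 0.13 (SE; adjusted p = 0.0319) without overlap, but lost with any 1 of the 6 arrays left out. PSME2, of the interferon-inducible activator, read 596, 537 and 495 and 334, 353 and 392, a difference of -0.57 ± 0.16 (SE; adjusted p = 0.0463), lost without any 1 array except SAL30 replicate 3. PSMB4 was given above. Of 18 phosphoinositide kinases and phosphatases, 1 was called higher and 0 lower, which was PIP5K1A, and the median was -0.08. PIK3CG, the catalytic partner of PIK3R5, read 813, 423 and 247 and 170.0, 246 and 252, a difference of -0.96 (adjusted p = 0.0519). Of 57 cytosolic ribosomal proteins, 0 were called, and 11 (19.3%) had an unadjusted p under 0.05 downwards (11.4% of all genes did). Differences were below 0 for 47 of 57 (52.6% of all genes were) with a median of -0.14, and -0.10 and -0.22 after quantile normalization and median centring. Neither this list nor the proteasome list was compared with genes of like intensity, although direction went with signal level over all probe sets. On probe sets other than the brightest, however, 2 ribosomal proteins were called higher. RPS28 read 108, 107 and 97.1 in SAL30 and 195, 271 and 243 in MB30, a difference of 1.06 ± 0.17 (SE; adjusted p = 0.00178) that held with each array left out, and its brightest probe set differed by -0.17 (adjusted p = 0.46). RPL27 read 25.8, 37.7 and 26.9 and 59, 76.4 and 50.9, a difference of 0.75 (adjusted p = 0.0433), lost without any 1 array except SAL30 replicate 2, and its brightest probe set differed by -0.17 (adjusted p = 0.54). Ribosomal protein genes have many near-identical copies, which such probe sets may not separate. RPS9 differed by -0.35 (adjusted p = 0.0652) and RPS24 by -0.35 (adjusted p = 0.0735).

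Vascular genes were looked at because methylene blue acts on vascular tone. Of 24 genes of angiogenesis, matrix and vascular tone, 0 were called higher and 1 lower, with a median of 0.20, and 7 (29.2%) had an unadjusted p under 0.05 upwards, against 9.46% of all genes. The one called was TIMP2, an inhibitor of matrix metalloproteinases, at 3489, 2717 and 2838 in SAL30 and 1918, 1885 and 2073 in MB30, a difference of -0.61 ± 0.16 (SE; adjusted p = 0.0342), lost without SAL30 replicate 1 or any 1 MB30 array. On its brightest probe set its relative TIMP3 read 50.1, 38.8 and 44.9 and 80, 128 and 69.7, a difference of 0.81 (adjusted p = 0.0717). On another it read 33.7, 16.5 and 34 and 54.8, 95.1 and 61.1 and was called higher at 0.97 (adjusted p = 0.0433), a call lost without any 1 array except SAL30 replicate 3. VEGFA differed by 0.17 (adjusted p = 0.57). Of 11 tight junction and blood-brain barrier genes, 0 were called, with a median of 0.18. Among them CLDN5, the main claudin of brain endothelium, read 618, 415 and 393 in SAL30 and 343, 504 and 293 in MB30, a difference of -0.32 (adjusted p = 0.46), CAV1 differed by 0.44 (adjusted p = 0.18) and MFSD2A, a lipid transporter of the barrier, by 0.38 (adjusted p = 0.0845).

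Of 12 endothelial and 9 smooth muscle and pericyte markers, 0 were called, with medians of 0.23 and 0.20. ERG and PECAM1 differed by 0.39 (adjusted p = 0.21) and 0.37 (adjusted p = 0.23), and ACTA2 and CALD1 by 0.39 (adjusted p = 0.34) and 0.48 (adjusted p = 0.12). Of 8 tested genes of meninges and fibroblasts, 2 were called higher and 0 lower. IGF2, a growth factor made by meninges, read 175, 131 and 229.9 in SAL30 and 375, 394 and 314 in MB30, a difference of 0.98 ± 0.23 (SE; adjusted p = 0.0208), and the collagen COL3A1 read 78.2, 133 and 189 and 237, 362 and 434, a difference of 1.30 ± 0.37 (SE; adjusted p = 0.0479). The MB30 arrays were above SAL30 in both genes. The summed intensity of the 9 genes on the array was 7807 to 9025 in SAL30 and 7872 to 11113 in MB30, with CRABP2 under the filter level in both. Both calls ended without MB30 replicate 1 or 2 or SAL30 replicate 1 or 2, and that of COL3A1 also without MB30 replicate 3. On a probe set other than the brightest, IGF2 was called higher at 0.93 (adjusted p = 0.0175), a call not followed under the alternatives. Its remaining tested probe sets ran from -0.44 to 0.99 without a call. AQP1, of choroid plexus, read 58.7, 223 and 59.1 and 464, 428 and 211, a difference of 1.72 (adjusted p = 0.26). The part of meninges in the sampled tissue was not tested.

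No neuron, oligodendrocyte or blood cell marker was called on its brightest probe set. Of 15 neuron markers the median was 0.12, and SYT1, a calcium sensor of synaptic vesicles, differed by 0.41 (adjusted p = 0.13). Of 11 oligodendrocyte markers 8 were negative, with a median of -0.32. MBP read 16673, 14970 and 15452 in SAL30 and 12558, 23328 and 16215 in MB30, a difference of 0.10 (adjusted p = 0.83), where OPALIN differed by -0.68 (adjusted p = 0.15) and OLIG2 by -0.86 (adjusted p = 0.089). On a dimmer probe set MOBP, a myelin protein, read 2333, 1991 and 644 in SAL30 and 353, 632 and 666 in MB30. The groups overlapped, yet it was called lower at -1.42 (adjusted p = 0.0486), lost without any 1 array except SAL30 replicate 3, and its brightest probe set differed by -0.31 (adjusted p = 0.48). The summed level of 11 oligodendrocyte genes on the array was 39716 to 50224 in SAL30 and 28953 to 52096 in MB30, so the arrays of MB30 differed more among themselves. HBB, of red blood cells, differed by 0.21 (adjusted p = 0.52), and NCF1 and ITGB2, of white blood cells, by -1.59 (adjusted p = 0.079) and -0.58 (adjusted p = 0.21). Of 6 glutamate and GABA genes 0 were called, and the astrocyte glutamate transporters SLC1A2 and SLC1A3 differed by 0.31 (adjusted p = 0.36) and 0.48 (adjusted p = 0.22). Of 9 apoptosis and p53 genes 0 were called, and CCNG1 differed by -0.55 (adjusted p = 0.0777). The 2 probe sets of BCL2L1, which protects from apoptosis, went opposite ways: the brighter differed by -0.61 (adjusted p = 0.13), and the other read 66.7, 55.5 and 44.8 in SAL30 and 79.5, 172 and 79.6 in MB30 and was called higher at 0.75 (adjusted p = 0.0498). That call was lost without MB30 replicate 2 or any 1 SAL30 array.

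At an unadjusted p under 0.05 (limma), 9.46% of all genes were higher and 11.4% lower. Counts for lists with 0 calls follow, with shares both above and below these. Upwards it was 4 of 15 neuron markers (26.7%), 2 of 12 endothelial markers (16.7%), 2 of 11 barrier genes (18.2%), 2 of 26 hypoxia genes (7.69%), 1 of 9 smooth muscle markers (11.1%) and 1 of 6 glutamate genes (16.7%). Downwards it was 2 of 11 oligodendrocyte markers (18.2%), 2 of 4 white blood cell markers (50%), 2 of 9 apoptosis genes (22.2%), 1 of 10 heme genes (10%) and 3 of 20 unfolded protein response genes (15%), with 1 more of those 20 upwards. Of 3 amine genes, 4 red blood cell markers and 2 choroid plexus markers, 0 were under 0.05. With so few members per list, these shares are descriptions only.

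Genes that differ after arrest and resuscitation were taken from the later saline groups, as those called in SAL60 or SAL180 against CA0 (168 probe sets, 1% of those tested). These groups share no array with MB30 or SAL30. CA0 animals had 0 min of arrest, and no compressions or infusion are given for them. The contrast therefore does not single out reperfusion from arrest, compressions or saline. Of the 121 higher in these saline groups than in CA0, 2 were called higher and 2 lower in MB30 against SAL30 (3.31%), and the median difference of the 121 was 0.05. Of the 47 lower in these saline groups than in CA0, 1 was called higher and 3 lower (8.51%), with a median of -0.12. Over all tested probe sets the share called was 4.09% and the median difference 0.02. Against CA0, the median of the 121 was 0.44 in SAL30 and 0.62 in MB30, 2 comparisons that share the CA0 arrays. The differences from CA0 were 4.41 in SAL30 and 3.80 in MB30 for HSPA6, 3.64 and 3.39 for ATF3, a stress transcription factor, 3.27 and 3.16 for CXCL2, 2.50 and 2.36 for HSP70.2, 2.42 and 2.42 for DUSP1 and 2.11 and 2.37 for FOS. All 6 genes were called against CA0 in both arms, with adjusted p of at most 0.0146.

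Between the arms, ATF3 read 643, 454 and 686 in SAL30 and 541, 572 and 374 in MB30, a difference of -0.26 (adjusted p = 0.66), and HSP70.2 read 11148, 8300 and 9951 and 7657, 11310 and 8064, a difference of -0.13 (adjusted p = 0.87). The groups overlapped in both. The 95% intervals of the difference, -0.87 to 0.36 for ATF3 and -0.86 to 0.59 for HSP70.2, bound the size of difference between the arms that these arrays allow.

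The difference seen during the infusion was also present in direction after its end, in other animals. The spike-in level differed between the arms there too, by -0.60 at 60 min and -0.36 at 180 min. Methylene blue and preparation therefore cannot be told apart at these times either. At 60 min, 122 probe sets were called higher (0.726%) and 134 lower (0.798%) in MB60 against SAL60, and at 180 min 215 higher (1.28%) and 104 lower (0.619%) in MB180 against SAL180. Of the 403 higher at 30 min, 73 were called higher at 60 min (18.1% of the 30 min calls, 59.8% of the 60 min calls) and 90 at 180 min (22.3% and 41.9%). Of the 284 lower, 36 were called lower at 60 min (12.7% and 26.9%) and 43 at 180 min (15.1% and 41.3%). None was called in the opposite direction at 60 or 180 min. Among the 403, 97.3% were positive at 60 min and 97.5% at 180 min, where 50.6% and 54.2% of all tested probe sets were; among the 284, 97.5% and 95.8% were negative, against 49.4% and 45.8%.

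The count of calls at later times followed single arrays as well. It was 103 without SAL60 replicate 1, 27 without SAL60 replicate 2, and 54 and 111 without MB60 replicate 2 and 3, where all arrays gave 256. At 180 min, where all arrays gave 319, it was 99 and 23 without SAL180 replicate 1 and 3, and 611, 40 and 78 without MB180 replicate 1, 2 and 3. A test of whether the difference at 30 min departed from the mean of the later ones called 0 of 16799 probe sets (limma), with 596 at an unadjusted p under 0.05 (3.55%), so no gene was shown to differ between the infusion period and later. The median difference of the 403 was 0.93 at 30 min, where the calls were selected, and 0.47 and 0.54 at 60 and 180 min; that of the 284 was -0.66, then -0.40 and -0.38.

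Called at all 3 times were 55 of the higher probe sets, 22 of them with 1 symbol, and 13 of the lower, 9 with 1 symbol. PSMD4 differed by 1.61, 1.95 and 1.71 at 30, 60 and 180 min, and PIP5K1A by 2.08, 1.96 and 1.59. PFDN6 differed by 1.48, 1.43 and 1.23, NDRG2 by 1.26, 1.84 and 1.51 and SLC37A4 by 1.79, 1.36 and 1.59. All 5 remained called after the infusion had ended. GLRB, the beta subunit of the glycine receptor, differed by 1.38, 1.26 and 1.26, and DDB1, an adaptor of a ubiquitin ligase that recognizes damaged DNA, by 1.28, 1.0 and 1.01.

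Others of this set, likewise named after their values were seen, were CTNNB1 (beta-catenin), CD59, which blocks the complement membrane attack complex, and GLO1, which detoxifies methylglyoxal. CTNNB1 read 2144, 2039 and 2010 in SAL30 and 2530, 3031 and 2536 in MB30, a difference of 0.38 (adjusted p = 0.0243), and its 9 methylene blue arrays lay at 2311 to 3031 against 1710 to 2144 on the 21 others. CD59 and GLO1 differed by 1.03 (adjusted p = 0.0135) and 0.88 (adjusted p = 0.0479). The other tested probe sets of these genes were not called. They differed by -0.21 for CD59, by -0.01 and -0.02 for GLO1, and by -0.20 to 0.46 for CTNNB1. Calls at 30 min ended for CTNNB1 without MB30 replicate 2 or SAL30 replicate 2, for CD59 without MB30 replicate 1 or SAL30 replicate 2, and for GLO1 without any 1 array except SAL30 replicate 3. PTP4A2, a membrane-bound phosphatase, was called on 2 of its 3 tested probe sets at 30 min, at 1.48 (adjusted p = 0.00178) and 1.06 (adjusted p = 0.0474), and the call of the latter was lost with any 1 of the 6 arrays left out. SET, NFIA, HOMER2 and TMED4 differed by -0.73, -0.74, -0.63 and -0.52 at 60 min and by -0.71, -0.71, -0.60 and -0.52 at 180 min. SLC2A4, the insulin-regulated glucose transporter, read 39.1, 21.7 and 28.7 in SAL30 and 104, 123 and 97.7 in MB30, differed by 1.45 (adjusted p = 0.000853) and was called at 180 min (0.89) but not at 60 min (0.82).

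Some genes with the largest differences at 30 min were not called later. HGSNAT differed by 1.59 (adjusted p = 0.25) at 60 min and 0.87 (adjusted p = 0.56) at 180 min, FAM131C by -1.26 (adjusted p = 0.081) and -0.42 (adjusted p = 0.59) and COG8 by 0.84 (adjusted p = 0.17) and 0.60 (adjusted p = 0.31). The change of each with time did not pass the test of the difference between 30 min and later. The arrays allow 1 more view: the 6 later methylene blue arrays were all above the 18 arrays of the 6 groups other than SAL30 without methylene blue for 91 of the 403 (22.6%, against 1.08% of all tested probe sets), and all below them for 49 of the 284 (17.3%, against 0.75%). None of these 24 arrays entered a group mean at 30 min, but all of them entered the filter and the spread behind the 403 and 284 calls, so this separation is not independent of the calls, and possible differences in preparation between the arms apply to it too.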

How the data were processed

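Cerebral cortex RNA from 30 pigs was labelled with biotin and hybridized to Affymetrix porcine arrays, 1 per animal. The authors deposited linear intensity, made with GCOS per the submitters' processing notes, of which neither version nor settings could be learned from the labels. The transform was log2(intensity + 16), which understates changes of dim probe sets, with 124 control probe sets left out. Probe sets under the 30th percentile of mean level (intensity 29.5) were dropped. limma 3.58.1 in R 4.3.3 fitted all 10 groups together (20 residual degrees of freedom, intensity trend, two-sided, Benjamini-Hochberg within each contrast at 0.05). The arrays hold no counts, so 3 per group limit the precision. Errors of differences are SE. Symbols came from the platform annotation, of which 9989 of 10099 entries with 1 symbol matched the reference table by gene ID. Genes named were PSMD4, PIP5K1A, the 10 largest changes in each direction among called, non-overlapping probe sets with 1 symbol, for each list its 2 smallest p, and a fixed set. A few of these are not given here, and others were added as stated. The fixed set was FOS, ATF3, HSPA6, HSP70.2, DUSP1, CXCL2, HMOX1, NOS2, NOS3, GUCY1B3, MAOA, MAOB, VEGFA, CLDN5, MBP and GFAP. Members and lists were chosen with earlier results of these data known. Alternatives were pseudocounts of 1 and 64, other filters and normalizations, covariates, array weights, a replicate block and left-out arrays. The fit was tested on simulated data.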

Additional observations from a re-analysis of the deposited data

How the results depend on the processing

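The count of 687 calls stayed within 1.5 times under 12 of 13 other settings, between 489 (50th percentile filter) and 858 (array weights), and fell to 27 with the 6 arrays alone, where only 4 residual degrees of freedom remain. Leaving out 1 array gave 246 to 1117. With the spike-in level as a covariate it was 602, of which 247 were among the 687. The replicate block gave 597; same-numbered arrays did not deviate together (correlations -0.24, 0.09 and -0.17). At 60 min the count of 256 became 63 with the compared groups alone, 56 with the 3′/5′ covariate and 791 with the spike-in covariate, and 27 to 221 with 1 array left out. At 180 min the count of 319 became 672 with median centring, 203 with cyclic loess, 15 with the compared groups alone, 1258 with array weights, 51 and 1316 with those covariates, and 23 to 611 with 1 array left out. The cause was not tested. The test against later times called 0 in all settings run. The spike-in difference stayed between -0.71 and -0.91 without 1 array. The 3′/5′ difference was 0.27 on the control named angioten alone and -0.35 on the other 3 transcripts, a choice made after seeing the data, as was cyclic loess. Signs reversed, always short of the threshold, for MBP with quantile normalization (-0.16), and for MBP (-0.14 to 0.31), CXCL2 (-0.27 to 0.11) and MAOA (-0.12 to 0.41) over left-out arrays. The same held for a dim POLR2B probe set with quantile (-0.055), loess (-0.0050) and the spike-in covariate (-0.20), and with that covariate for FOS (-0.43), VEGFA (-0.013) and CLDN5 (0.20). DUSP1 reversed to -0.075 with median centring, -0.11 and -0.28 with the 3′/5′ and spike-in covariates, and ran from -0.14 to 0.18 over left-out arrays. Probe sets near background, where 1 array can carry a group mean, limit what is measured at low intensity.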
